A study of Mus musculus with 8 samples.

Results

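The genes described here are 9 genes of MHC class I antigen presentation, chosen by name: H2-D1, H2-K1, H2-T23, H2-M3, B2m, Tap1, Tap2, Tapbp and Nlrc5. All 9 were present among the 23413 gene symbols of the table and among the 11415 genes tested. The rule that lists them uses names and no measured value, but it was drawn up with earlier results of these data known. Their lowest value in any library was 33.55 normalised counts, so all 9 stood above the filter on low values in every library.

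RNA sequencing of 8 mouse libraries covered 3 kinds of mononuclear phagocyte. These were repopulating microglia (n = 3, strain label DTRmg), bone-marrow macrophages (n = 3, strain label DTRmg) and wild-type microglia (n = 2, strain label DTR). Microglia are macrophages that live in the brain throughout life, and the series title concerns interleukin-1 signalling in their renewal and upkeep. Brain tissue was dissociated, enriched on a density gradient and sorted, per the labels' protocols. In the same protocols, 2 mg tamoxifen was injected subcutaneously at postnatal days 12 and 14, while 500 ng diphtheria toxin was injected 3 times to deplete microglia. The same protocol text stands on every sample, wild type included. The labels do not name the promoter or cell type that drives the toxin receptor, the age of the mice at sampling, or the organ that the bone-marrow macrophages came from. Strain label and group cannot be told apart in either comparison with wild-type microglia. Nothing in the labels ties replicates to different animals. The p-values therefore reflect spread among these libraries alone, part of which could be technical.

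MHC class I molecules show short peptides from inside the cell to CD8+ T cells. Each is a heavy chain, such as H2-K1 or H2-D1, held together with the light chain beta-2-microglobulin. The transporter Tap1-Tap2 carries peptides into the endoplasmic reticulum, where tapasin (Tapbp) helps to load them, and Nlrc5 is a transactivator that acts at class I promoters. Interferons are known to raise these genes, and microglia of the healthy brain are known to carry little class I on their surface.

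Reads counted in genes ran from 5918944 to 12476427 per library. Among the repopulating microglia, replicate 3 stood apart: the chi-square per degree of freedom over gene counts was 58.2 and 61.2 against replicates 1 and 2, and 11.1 between replicates 1 and 2. Summed over 10 microglia markers, normalised counts ran from 257858 to 298888 in repopulating microglia, from 94980 to 107218 in bone-marrow macrophages and from 408966 to 449511 in wild-type microglia. The microglial transcription factor gene Sall1 stood at 3520 ± 2265 normalised counts in repopulating microglia, 20.1 ± 13.9 in bone-marrow macrophages and 3618 ± 619 in wild-type microglia (SD). Its repopulating libraries held 2594, 1864 and 6101 in replicates 1 to 3. Of the 10 microglia markers, limma called 5 lower and 0 higher in repopulating against wild-type microglia, with a median log2 difference of -0.59. Over all tested genes 3.75% were called lower and 4.86% higher in that comparison. Summed over 9 neutrophil markers, the levels were 1593 to 3032, 790.1 to 1320 and 26054 to 28324 normalised counts in the same 3 groups. All 9 neutrophil markers fell in repopulating microglia and in bone-marrow macrophages against wild-type microglia. Sums over 10 monocyte markers were 3285 to 15464, 38370 to 49726 and 15347 to 18871 normalised counts in repopulating microglia, bone-marrow macrophages and wild-type microglia. The repopulating sums were 9499, 15464 and 3285 in replicates 1 to 3, so replicate 3 was the lowest. Lyz2 alone held 30463 to 41286 in bone-marrow macrophages and 10778 to 11926 in wild-type microglia. In bone-marrow macrophages against wild-type microglia 4 of the 10 rose and 2 fell. Over all tested genes 21.3% rose and 22.2% fell. Ly6c2 stood at 67.0 to 94.3 in bone-marrow macrophages against 857.1 and 1366 in wild-type microglia, and Plac8 at 66.1 to 133 against 1128 and 2829. Sums over markers of T and NK cells, B cells, dendritic cells, endothelium or other brain cells stayed at or below 689.4 in every library, with Cd3e and Cd3g at 0 in wild-type microglia, Pax5 and Syt1 at 0 in repopulating microglia, Vpreb3 at 0 in wild-type microglia and Tek at 0 in bone-marrow macrophages. Some of these sums differed between groups. Dendritic-cell sums were 81.2 to 101.4, 82.4 to 95.45 and 390 to 392.5 in repopulating microglia, bone-marrow macrophages and wild-type microglia. In the same order B-cell sums were 59.0 to 186.6, 64.8 to 123 and 305.6 to 344.7. Endothelial sums were 87.8 to 458.4, 55.1 to 72.1 and 447.7 to 689.4, with the 458.4 in repopulating replicate 3. Sums of other brain cells overlapped among the groups. The part of these transcripts in the class I results was not tested. In bulk samples such as these, fewer cells of a type and less RNA per cell cannot be told apart.

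Promoter sequence was available for 7 of the 9 genes in the RefSeq table (GRCm38.p6), and 4 of them shared a spaced pair of elements in the 250 bases before the transcription start. Class I promoters are known for an SXY module, in which an X box with a cyclic-AMP-response-like core and a Y box with an inverted CCAAT sit at a fixed distance. The letters TGACGNNNNNNNNNNNNNNNNNNNNATTGG, searched on both strands, were found in H2-D1, H2-K1, H2-M3 and B2m. They were found in 0.0913% of all 32851 promoter windows and in 26 of 27025 genes. The motif was written down after these promoters had been read, so its presence in the 4 genes is a description. The 30 bases of each pair are shown because H2-D1, H2-K1 and H2-M3 share them with B2m, with the X and Y cores in capitals. The sequences lie at chr17:35262993-35263022 (plus strand), chr17:34000359-34000388 (minus strand), chr17:37270188-37270217 (plus strand) and chr2:122147609-122147638 (plus strand), in the order given. The H2-D1 pair lies before the RefSeq start and inside the gene as GENCODE draws it.
H2-D1: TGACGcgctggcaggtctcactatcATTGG
H2-K1: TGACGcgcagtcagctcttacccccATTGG
H2-M3: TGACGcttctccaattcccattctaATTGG
B2m: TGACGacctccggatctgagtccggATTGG

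Upstream of the pair, promoters of 3 heavy chains held the letters GATTCCCC, as in kappaB-type elements, and GAANNGAAA, as in interferon response elements. The promoter of H2-T23 was searched too and held none of these or the pair. GATTCCCC was found in H2-D1, H2-K1 and H2-M3, in 0.752% of all promoter windows and in 0.877% of all genes searched. GAANNGAAA, also searched on both strands, was found in the same 3 genes, in 6.31% of windows and in 7.3% of all genes. In these 3 genes it lies on the strand opposite to the gene and reads TTTCACTTC along the gene. GAAANNGAA was found in B2m and H2-T23, in 7.13% of windows and in 8.18% of all genes. The core TGACG alone was also found in Tap1, and ATTGG alone in all 7 members searched. Over all promoters these stood in 17.8% and 33.8% of windows, or 19.8% and 37.5% of genes. The TGACG and ATTGG searches overlap the pair by construction, and the interferon-type searches can overlap each other. The longer stretches of H2-K1 (chr17:34000359-34000467, minus strand), H2-M3 (chr17:37270099-37270217, plus strand) and B2m (chr2:122147536-122147638, plus strand) show the order of these elements, with the pair and the kappaB-type and interferon-type matches in capitals. The H2-M3 stretch holds another ATTGG on each strand, left in lower case.
H2-K1: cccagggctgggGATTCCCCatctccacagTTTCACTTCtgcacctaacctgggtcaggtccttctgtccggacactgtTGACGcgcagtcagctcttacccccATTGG
H2-M3: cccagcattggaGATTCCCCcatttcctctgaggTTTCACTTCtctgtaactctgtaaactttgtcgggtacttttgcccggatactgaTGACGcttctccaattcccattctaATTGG
B2m: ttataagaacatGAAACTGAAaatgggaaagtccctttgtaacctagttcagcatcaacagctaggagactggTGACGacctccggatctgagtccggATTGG

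Both classical heavy chains had their lowest mean in wild-type microglia, and H2-D1 was the member called in both comparisons with that group. H2-D1 (GRCm38 chromosome 17, 35262730 to 35267499, plus strand) encodes the D heavy chain that presents peptides to CD8+ T cells. Its libraries held 7505, 4974 and 6569 normalised counts in repopulating microglia replicates 1 to 3, 5935, 6381 and 6797 in bone-marrow macrophages and 3470 and 3340 in wild-type microglia. Every repopulating and every bone-marrow library lay above both wild-type libraries, and the first 2 groups overlapped each other. H2-D1 rose by 0.88 ± 0.18 on the log2 scale in repopulating against wild-type microglia (SE, limma adjusted p = 0.0223), a 1.84-fold difference with means of 6349 ± 1280 normalised counts in repopulating (SD, n = 3) and 3405 ± 92.3 in wild-type microglia (SD, n = 2). It rose by 0.90 ± 0.18 in bone-marrow macrophages, at 6371 ± 431 (SD, n = 3), against the same wild-type libraries (limma adjusted p = 0.00424). Repopulating microglia and bone-marrow macrophages differed by -0.02 ± 0.16 (limma adjusted p = 0.932). For repopulating against wild-type microglia the limma call was lost on omission of either wild-type library (adjusted p = 0.159 for replicate 1 and 0.142 for replicate 2), repopulating replicate 1 (0.0595) or bone-marrow macrophage replicate 2 (0.0506). It was also lost with only these groups in the fit (0.12) and with a covariate for Y-linked transcripts (0.0569), and the adjusted p ran from 0.000185 to 0.159 over the 23 alternatives. Between bone-marrow macrophages and wild-type microglia it held in all 23, up to an adjusted p of 0.0378.

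H2-K1 (chromosome 17, 33996017 to 34000347, minus strand) encodes the K heavy chain. Normalised counts were 13391, 8467 and 8531 in repopulating microglia, 7648, 8074 and 9001 in bone-marrow macrophages and 7881 and 6504 in wild-type microglia. Repopulating replicate 1 was the highest library, and the bone-marrow range overlapped both others. The repopulating libraries lay above the wild-type ones, at log2 0.47 ± 0.22, but the difference did not pass (limma adjusted p = 0.216). Bone-marrow macrophages differed from wild-type microglia by 0.20 ± 0.22 and repopulating microglia from bone-marrow macrophages by 0.27 ± 0.20 (limma adjusted p = 0.483 and 0.343).

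The nonclassical heavy chains had another order of groups. H2-T23 (chromosome 17, 36029773 to 36032855, minus strand) encodes Qa-1, which presents leader peptides of other class I chains to the receptor CD94-NKG2A of natural killer cells. The 3 values of repopulating microglia were 3269, 2285 and 2170 normalised counts. Those of bone-marrow macrophages were 1073, 1128 and 1242, and those of wild-type microglia 2446 and 1765. The bone-marrow macrophages lay below all 5 microglia libraries, while the microglia groups overlapped. H2-T23 rose by 1.14 ± 0.19 in repopulating microglia, at 2575 ± 604 (SD, n = 3), against bone-marrow macrophages at 1148 ± 86.4 (SD, n = 3; limma adjusted p = 0.00209). This call held under every alternative tried, with a highest adjusted p of 0.0132, from limma without bone-marrow macrophage replicate 1. In bone-marrow macrophages H2-T23 fell by 0.86 ± 0.21 against wild-type microglia, which stood at 2105 ± 481 (SD, n = 2; limma adjusted p = 0.0109). Without wild-type replicate 1 that difference was -0.62 and did not pass (limma adjusted p = 0.11). Repopulating and wild-type microglia differed by 0.28 ± 0.21 (limma adjusted p = 0.419).

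H2-M3 (chromosome 17, 37270220 to 37274484, plus strand) encodes a heavy chain that presents formylated peptides of bacteria and mitochondria. Repopulating replicates 1 to 3 held 724.4, 447.2 and 569 normalised counts, bone-marrow macrophages 413.1, 437 and 413.6, and wild-type microglia 624 and 448.4. The bone-marrow macrophages were the lowest and tightest group, below each microglia library, and the microglia groups overlapped. No comparison passed: H2-M3 differed by 0.11 ± 0.22 in repopulating against wild-type microglia, by -0.33 ± 0.22 in bone-marrow macrophages relative to wild-type microglia and by 0.43 ± 0.19 in repopulating microglia against bone-marrow macrophages (limma adjusted p = 0.788, 0.246 and 0.126).

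B2m (chromosome 2, 122147686 to 122153083, plus strand) encodes the light chain that all these heavy chains bind. Its libraries held 63308, 46828 and 40191 normalised counts in repopulating microglia, 29858, 32444 and 33237 in bone-marrow macrophages and 38980 and 30224 in wild-type microglia. The 3 repopulating libraries were the highest of the 8, and bone-marrow macrophages and wild-type microglia overlapped. B2m rose by 0.63 ± 0.20 in repopulating microglia, at 50109 ± 11903 (SD, n = 3), against bone-marrow macrophages at 31846 ± 1767 (SD, n = 3; limma adjusted p = 0.0433). The call was lost under 14 of 23 alternatives, including the omission of any 1 library other than repopulating replicate 3 (limma adjusted p from 0.0598 to 0.142). Quantile normalisation left a difference of 0.03 (limma adjusted p = 0.887), and equal library totals 0.38 (0.1). Without repopulating replicate 3 the difference was 0.78 and passed (limma adjusted p = 0.00157). Against wild-type microglia the repopulating libraries differed by 0.52 ± 0.23 and the bone-marrow macrophages by -0.11 ± 0.23 (limma adjusted p = 0.184 and 0.714).

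**Figure D1:**
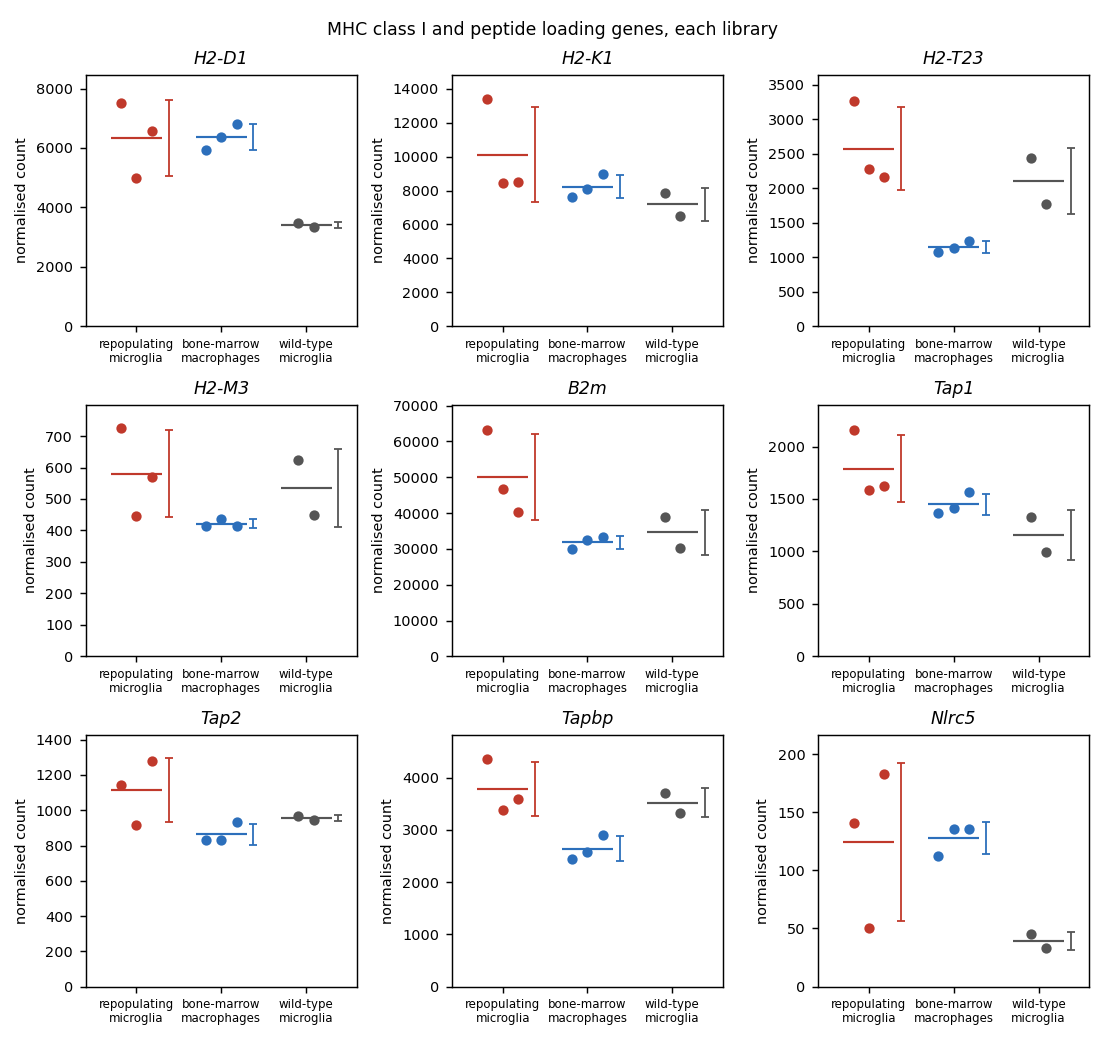
Normalised count (vertical axes, from 0) of the 9 genes in repopulating microglia, bone-marrow macrophages and wild-type microglia, left to right. Points are libraries, lines are means and bars beside them are SD; H2-D1 at 3340 to 3470 in wild-type microglia lies below every other library, and H2-T23 at 1073 to 1242 in bone-marrow macrophages likewise.

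Tap1 and Tap2 (chromosome 17, 34187553 to 34197225 and 34203527 to 34216321, plus strand) encode the subunits of the peptide transporter. Tap1 libraries held 2159, 1585 and 1622 normalised counts in repopulating microglia, 1369, 1418 and 1562 in bone-marrow macrophages and 1329 and 992.3 in wild-type microglia. The 3 groups did not overlap, with repopulating microglia highest and wild-type microglia lowest. No Tap1 difference passed, at 0.62 ± 0.18 in repopulating against wild-type microglia, 0.33 ± 0.18 in bone-marrow macrophages relative to wild-type microglia and 0.29 ± 0.16 in repopulating microglia against bone-marrow macrophages (limma adjusted p = 0.0718, 0.168 and 0.215). Tap2 stood at 1146, 918 and 1279 normalised counts in repopulating microglia, at 830.3, 830.4 and 932.1 in bone-marrow macrophages and at 968.1 and 943.5 in wild-type microglia. Repopulating replicate 2 lay below both wild-type libraries and below bone-marrow replicate 3, so the repopulating range overlapped both other groups. Tap2 differed by 0.21 ± 0.16, -0.15 ± 0.16 and 0.35 ± 0.14 in the same order of comparisons (limma adjusted p = 0.432, 0.473 and 0.0894).

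Tapbp (chromosome 17, 33915899 to 33929292, plus strand) encodes tapasin, which bridges the transporter and the empty heavy chain. In normalised counts it was at 4362, 3386 and 3584 in repopulating microglia, at 2441, 2576 and 2902 in bone-marrow macrophages and at 3712 and 3326 in wild-type microglia. As for H2-T23 and H2-M3, the bone-marrow macrophages lay below all microglia libraries and the microglia groups overlapped. Tapbp rose by 0.51 ± 0.14 in repopulating microglia, at 3777 ± 516 (SD, n = 3), against bone-marrow macrophages at 2640 ± 237 (SD, n = 3; limma adjusted p = 0.0211). The limma call was lost on omission of bone-marrow macrophage replicate 1 (adjusted p = 0.0961) or 2 (0.0729) or repopulating replicate 1 (0.0713). It was also lost with equal library totals (log2 0.26, 0.128) and quantile normalisation (log2 0.27, 0.148). The difference of -0.42 ± 0.15 in bone-marrow macrophages against wild-type microglia lay just beyond the threshold (limma adjusted p = 0.0536), and that of repopulating against wild-type microglia was 0.10 ± 0.15 (0.721).

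Nlrc5 (chromosome 8, 94434356 to 94527272, plus strand) had the lowest level of the 9 genes and, in repopulating microglia and bone-marrow macrophages, the widest spread relative to its mean (54.5% and 10.8%). Levels were 140.7, 50.2 and 183.1 normalised counts in repopulating microglia, 112, 135.8 and 135.8 in bone-marrow macrophages and 44.9 and 33.6 in wild-type microglia. These values rest on 149, 34 and 159 reads in repopulating microglia, 197, 128 and 154 in bone-marrow macrophages and 42 and 33 in wild-type microglia. Repopulating replicate 2 sat just above the wild-type libraries and apart from replicates 1 and 3, which lay above the bone-marrow macrophages. Nlrc5 rose by 1.69 ± 0.47 in bone-marrow macrophages, at 127.8 ± 13.8 (SD, n = 3), against wild-type microglia at 39.2 ± 8.01 (SD, n = 2; limma adjusted p = 0.019). That call was lost on omission of bone-marrow macrophage replicate 2 (limma adjusted p = 0.0559) or 3 (0.0592) or of wild-type replicate 1 (0.064) or 2 (0.119). Repopulating against wild-type microglia differed by 1.47 ± 0.47 and did not pass (limma adjusted p = 0.0896), although it passed at 2.02 without repopulating replicate 2 (0.00508), where 7.76% of all genes were called. Repopulating microglia and bone-marrow macrophages differed by -0.22 ± 0.42 (limma adjusted p = 0.732).

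**Figure D2:**
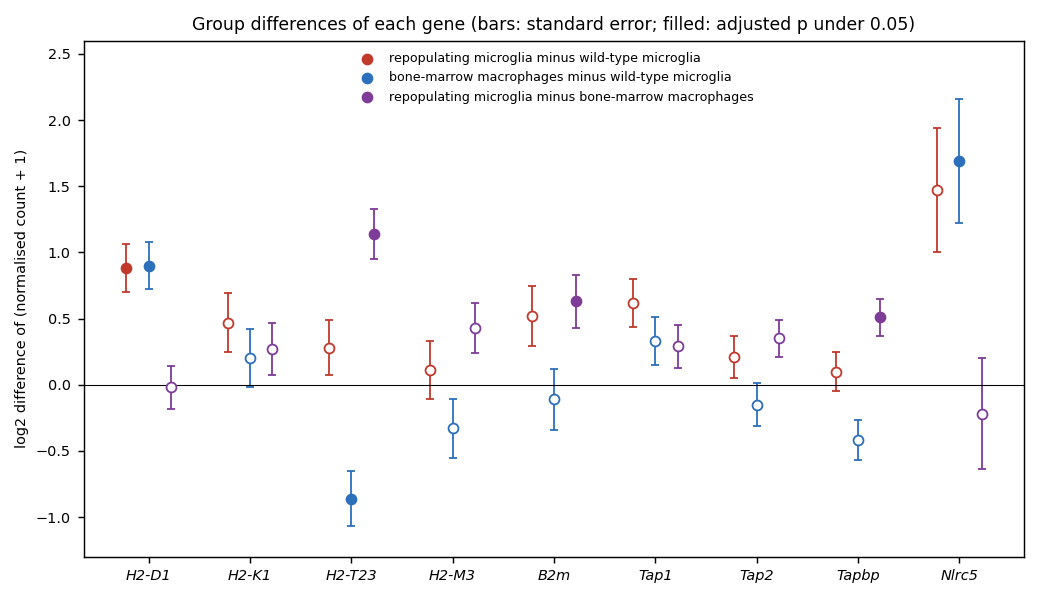
Difference in log2(normalised count + 1) (vertical axis) of each gene for the 3 comparisons, with limma standard errors as bars and filled points for an adjusted p under 0.05. H2-D1 is near 0.9 in both comparisons with wild-type microglia and at -0.02 between the other 2 groups, while H2-T23 is at -0.86 for bone-marrow macrophages minus wild-type microglia and at 1.14 in repopulating microglia against bone-marrow macrophages.

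By comparison, 1 of the 9 genes rose and none fell in repopulating against wild-type microglia, where limma called 8.61% of all tested genes with 4.86% higher and 3.75% lower. All 9 log2 differences were above 0, though H2-M3 and Tapbp were at -0.0038 and -0.0136 with equal library totals and at -0.0684 and -0.0123 without repopulating replicate 1, Tapbp at -0.0627 with quantile normalisation and H2-M3 at -0.1326 without wild-type replicate 2. The median of the 9 was 0.47, against -0.02 over all tested genes, but 0.36 with equal library totals and 0.20 with quantile normalisation. Ranges did not overlap for 5 genes, each higher in repopulating microglia, while 18.5% of all tested genes were apart and higher and 40.4% apart in either direction. In bone-marrow macrophages against wild-type microglia 2 genes rose and H2-T23 fell, where 43.5% of all genes were called, 21.3% higher and 22.2% lower. The median of the 9 was -0.11, against -0.01 over all genes, but 0.03 with equal library totals and 0.13 with quantile normalisation. Ranges were apart for 3 genes higher and 4 lower, against 38% and 37.8% of all genes, or 75.8% in either direction. In repopulating microglia against bone-marrow macrophages H2-T23, B2m and Tapbp rose and none fell, where 30.9% of all genes were called, 16% higher and 14.9% lower. The median of the 9 was 0.35, against 0 over all genes, but 0.10 with equal library totals and 0.14 with quantile normalisation. Ranges were apart for 5 genes, all higher, against 23.7% of all genes, or 46% in either direction. These comparisons share libraries and are not independent. The first count changed most with single libraries. Without repopulating replicate 3, which stood apart, 5 of the 9 were called higher in repopulating against wild-type microglia, where 25.9% of all genes were then called. H2-D1, H2-K1, B2m, Tap1 and Nlrc5 then stood at log2 0.84, 0.57, 0.67, 0.69 and 1.10 (limma adjusted p = 0.00244, 0.0392, 0.0142, 0.0091 and 0.0452). In that comparison limma called none of the 9 without repopulating replicate 1 or bone-marrow macrophage replicate 2. There 468 and 520 of 11415 tested genes were called, and 3 and 3 of the 9 had an unadjusted p under 0.05. Without wild-type replicate 1 or 2 only 1 wild-type library remains, so counts of calls are not given here for those fits. Of the 9, 6 were called with library weights, 3 with DESeq2 and 0 with only these groups in the fit (3 with an unadjusted p under 0.05), where 24.6%, 14.2% and 0.683% of all genes were called. Library weights called 7 of the 9 in repopulating microglia against bone-marrow macrophages, where 56.1% of all genes were called. A fit of only the groups compared called 5 in bone-marrow macrophages against wild-type microglia, where 62.8% of all genes were called.

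Within a group the genes mostly kept the same order of libraries. Of the 9 genes, 7 had their highest repopulating value in replicate 1, and 7 had their lowest in replicate 2. In bone-marrow macrophages all 9 were lowest in replicate 1 and 8 were highest in replicate 3. In wild-type microglia all 9 were higher in replicate 1. The 9 genes are therefore not replicates of one another.

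Levels of different genes were set against each other as normalised counts per kilobase of exon. In repopulating microglia B2m led at 58266 ± 13840 (SD, n = 3), followed by H2-K1 at 3448 ± 961 and H2-D1 at 2462 ± 496, whose ranges overlapped. Tapbp followed at 1041 ± 142 and H2-T23 at 891 ± 209, then H2-M3 at 403.5 ± 96.6, Tap1 at 327 ± 58.7 and Tap2 at 295 ± 48.2. Ranges of neighbours overlapped between Tapbp and H2-T23 and among H2-M3, Tap1 and Tap2. Nlrc5 was lowest at 14.7 ± 8.00. In bone-marrow macrophages B2m stood at 37031 ± 2055, H2-K1 at 2805 ± 235.5, and H2-D1 at 2470 ± 167. Below them came Tapbp at 728 ± 65.4, H2-T23 at 397 ± 29.9, H2-M3 at 293 ± 9.48, Tap1 at 265 ± 18.3, Tap2 at 229 ± 15.5 and Nlrc5 at 15.1 ± 1.62. The order was that of repopulating microglia, and H2-K1 and H2-D1 were the neighbours whose ranges overlapped. In wild-type microglia B2m stood at 40235 ± 7199, H2-K1 at 2448 ± 331, H2-D1 at 1320 ± 35.8, Tapbp at 970 ± 75.3, H2-T23 at 729 ± 167, H2-M3 at 373 ± 86.4 and Nlrc5 at 4.62 ± 0.943. There the ranges of all neighbours were apart over 2 libraries, H2-K1 and H2-D1 included, and Tap2 at 253 ± 4.58 stood above Tap1 at 212 ± 43.5. That last order rests on the division by exon length, 5476 bases for Tap1 and 3781 for Tap2. Before it, Tap1 was the higher in each wild-type library, at 1329 and 992.3 normalised counts against 968.1 and 943.5.

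**Figure D3:**
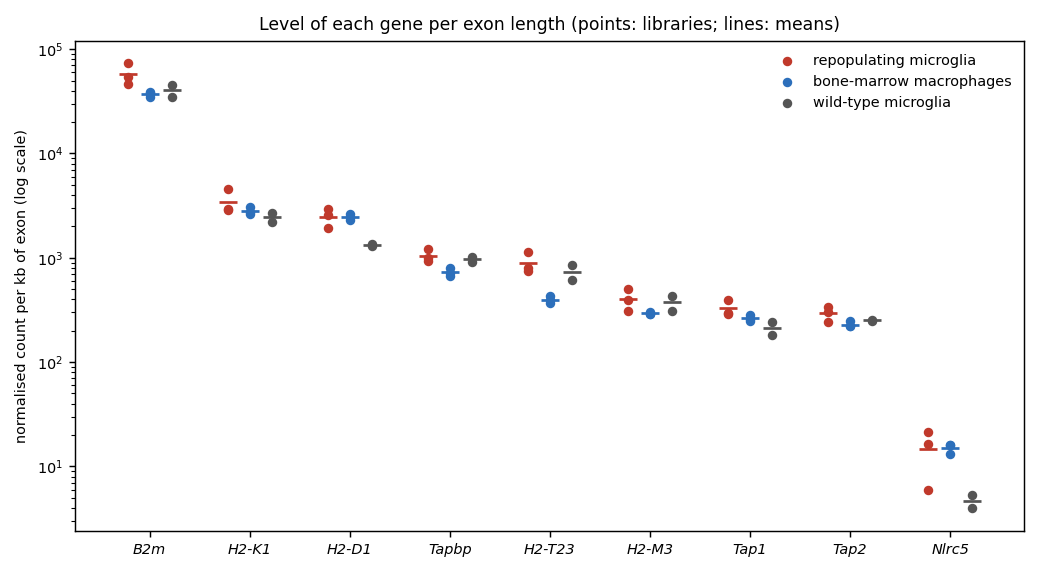
Level per kilobase of exon (vertical axis, log scale) of the 9 genes, ordered by their mean in repopulating microglia. Points are libraries and short lines are means of repopulating microglia, bone-marrow macrophages and wild-type microglia, left to right within each gene; B2m is far above the heavy chains and Nlrc5 far below all others.

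Ratios of normalised counts within a library do not depend on how libraries were scaled. H2-D1 over H2-K1 was 0.56, 0.587 and 0.77 in repopulating microglia, 0.776, 0.79 and 0.755 in bone-marrow macrophages and 0.44 and 0.514 in wild-type microglia. The ratio was lowest in wild-type microglia, and repopulating replicate 3 reached the bone-marrow range while replicates 1 and 2 did not. H2-T23 over H2-K1 was 0.244, 0.27 and 0.254 in repopulating microglia, 0.14, 0.14 and 0.138 in bone-marrow macrophages and 0.31 and 0.271 in wild-type microglia. The bone-marrow macrophages were nearly constant in it and apart from both microglia groups. H2-K1 over B2m was 0.212, 0.181 and 0.212 in repopulating microglia, 0.256, 0.249 and 0.271 in bone-marrow macrophages and 0.202 and 0.215 in wild-type microglia, so that each bone-marrow library held more H2-K1 per B2m count than any microglia library. Tap1 over Tapbp was 0.495, 0.468 and 0.452 in repopulating microglia, 0.561, 0.55 and 0.538 in bone-marrow macrophages and 0.358 and 0.298 in wild-type microglia, with all 3 groups apart. By log2 of geometric means, repopulating microglia and bone-marrow macrophages differed by -0.29 ± 0.14 in H2-D1 over H2-K1, 0.88 ± 0.043 in H2-T23 over H2-K1 and -0.36 ± 0.084 in H2-K1 over B2m (SE). The 7 gene pairs were chosen after the values had been seen. An exact two-sided permutation test cannot go below 0.2 with 3 libraries against 2 or below 0.1 with 3 against 3, and the lowest Benjamini-Hochberg adjusted p over the 21 ratio comparisons was 0.263.

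**Figure D4:**
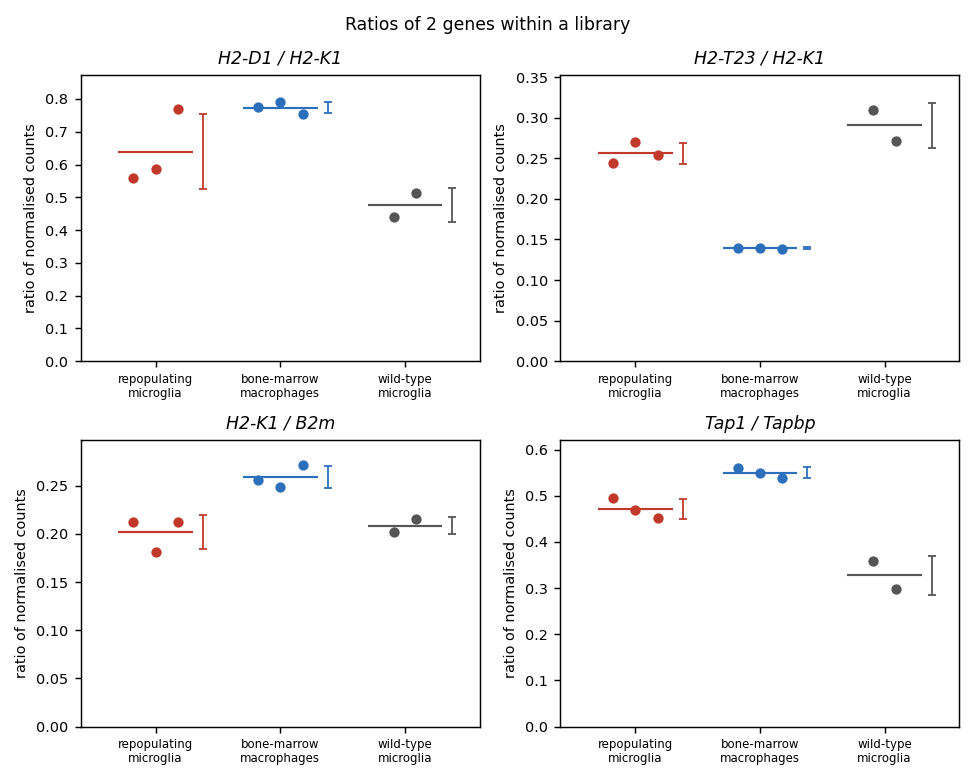
Ratio of normalised counts of 2 genes within each library (vertical axes, from 0) for 4 gene pairs, with repopulating microglia, bone-marrow macrophages and wild-type microglia left to right. Points are libraries, lines are means and bars are SD; H2-T23 over H2-K1 is 0.138 to 0.14 in bone-marrow macrophages and 0.244 to 0.31 in the microglia libraries.

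Shared sequence bears on the heavy chains and on Tapbp and Tap2, and the treatment of reads with several matches was not stated by the submitters. Of the 50-base stretches in annotated transcripts of H2-D1, 12.8% also occurred in a transcript of another gene, most often H2-Q1 and H2-K1. The share was 9.63% for H2-K1, 14.5% for H2-T23, 0.576% for H2-M3, 0.338% for Nlrc5 and 0 for B2m. Counting either strand, it was largest for Tapbp, at 23.2%, with 20.3% in Gm19412. It was 11.6% for Tap2, with 9.22% in Gm15821, and 3.33% for Tap1. The kit does not mark strand, and Tap1 overlaps Psmb9 on the opposite strand over 3.87% of its exon bases, so reads there cannot be told apart. Tapbp overlaps Gm19412 over 24.9% and Tap2 overlaps Gm15821 over 14.1% of their exon bases, also on the opposite strand.

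Related genes were counted against the shares of all tested genes called in each comparison, 8.61% in repopulating against wild-type microglia, 43.5% in bone-marrow macrophages relative to wild-type microglia and 30.9% in repopulating microglia against bone-marrow macrophages. Of 22 other class I and class I-like heavy chains, 10 were tested. None passed in repopulating against wild-type microglia, with a median log2 difference of -0.20, and 4 fell in bone-marrow macrophages against wild-type microglia, with a median of -0.38. In repopulating microglia against bone-marrow macrophages 5 rose and 1 fell, with a median of 0.70. Fcgrt, the neonatal Fc receptor that recycles immunoglobulin G, stood at 982 ± 104 normalised counts in repopulating microglia, 430 ± 32.8 in bone-marrow macrophages and 1309 ± 93.3 in wild-type microglia (SD). It fell by 1.60 ± 0.14 in bone-marrow macrophages relative to wild-type microglia and rose by 1.19 ± 0.13 in repopulating microglia against bone-marrow macrophages (limma adjusted p = 7e-05 and 0.000223). Hfe, which regulates iron uptake, fell by 1.30 ± 0.14 and rose by 1.01 ± 0.13 in those comparisons (limma adjusted p = 0.000213 and 0.000545). Cd1d1, which presents lipids to natural killer T cells, stood at 62.0 ± 27.8, 8.86 ± 3.03 and 108.9 ± 1.34 normalised counts in repopulating microglia, bone-marrow macrophages and wild-type microglia. It fell by 3.52 ± 0.43 and rose by 2.61 ± 0.38 in the same comparisons (limma adjusted p = 0.000353 and 0.00117). H2-T24, a heavy chain of the T region, rose by 1.17 ± 0.23 in repopulating microglia against bone-marrow macrophages, at 351 ± 104 against 150.6 ± 10.4 (limma adjusted p = 0.00509). H2-Q5 was also among those that rose there, by 1.06 ± 0.30, and H2-T10 fell by 1.41 ± 0.34, at 8.23 ± 1.89 against 23.2 ± 1.13 normalised counts (limma adjusted p = 0.0283 and 0.0131). Both were named to complete the count, after their values had been seen.

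Most other loading factors did not pass. Of 10 further loading and chaperone genes, Uggt1, the glucosyltransferase that returns misfolded glycoproteins to the folding cycle, rose by 0.59 ± 0.13 in repopulating and by 0.80 ± 0.13 in bone-marrow against wild-type libraries (limma adjusted p = 0.0279 and 0.00155). Hsp90b1, a chaperone of the endoplasmic reticulum, rose by 0.79 ± 0.15 in bone-marrow macrophages against wild-type microglia (limma adjusted p = 0.00302), and none of the 10 passed between repopulating microglia and bone-marrow macrophages. Medians were 0.07, -0.05 and 0.08 in the 3 comparisons. Of 6 genes of the immunoproteasome and the PA28 cap, which cut proteins into peptides or help to, Psme1 rose by 0.88 ± 0.15 in repopulating and by 0.70 ± 0.15 in bone-marrow libraries against wild-type microglia (limma adjusted p = 0.0128 and 0.00634). No other gene of the 6 passed in any comparison, and medians were -0.05, 0.05 and -0.06.

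Some interferon signalling genes passed in every comparison. Of 14 interferon receptor and signal transducer genes, 5 rose and none fell in repopulating against wild-type microglia, with a median of 0.16. Stat2, which carries the type I interferon signal to the nucleus, rose by 1.26 ± 0.20 (limma adjusted p = 0.00961), at 489 ± 114 normalised counts in repopulating and 200.2 ± 7.03 in wild-type microglia (SD). In bone-marrow macrophages against wild-type microglia 4 rose and 4 fell, with a median of -0.20, where 21.3% of all tested genes rose and 22.2% fell. The receptor chains Ifnar1 and Ifngr1, for type I interferon and interferon gamma, rose by 2.05 ± 0.16 and fell by 1.55 ± 0.13 there (limma adjusted p = 4.38e-05 and 6.35e-05). Irf1, a transcription factor that acts at class I promoters, fell by 0.82 ± 0.18 (limma adjusted p = 0.00609). In repopulating microglia against bone-marrow macrophages 6 rose and 1 fell, with a median of 0.34, and Irf1 rose by 0.77 ± 0.16, at 589 ± 87.1 against 342 ± 7.02 normalised counts (limma adjusted p = 0.00629). Among 5 NF-kappaB subunit genes, Rela stood at 659 ± 33.2 in bone-marrow macrophages and 1074 ± 54.4 in wild-type microglia and fell by 0.70 ± 0.17 (limma adjusted p = 0.0107). Nfkb2 rose by 0.71 ± 0.16 in repopulating and by 0.55 ± 0.16 in bone-marrow against wild-type libraries (limma adjusted p = 0.0323 and 0.0253), and medians of the subunits were 0.48, -0.04 and 0.31.

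Of 9 transactivation partners, the genes of the factors that bind the X and Y boxes and the class II transactivator Ciita, none passed in repopulating against wild-type microglia. In bone-marrow macrophages against wild-type microglia Ciita rose by 1.62 ± 0.32, while Nfya, a subunit of the CCAAT-binding factor, fell by 0.64 ± 0.15 and Rfxank, a subunit of the X-box factor, fell by 0.61 ± 0.18 (limma adjusted p = 0.00401, 0.0104 and 0.0219). Ciita fell by 2.32 ± 0.29 in repopulating microglia against bone-marrow macrophages, at 17.6 ± 4.98 against 90.0 ± 13.4 normalised counts, and Rfx5 rose by 0.46 ± 0.13 (limma adjusted p = 0.000484 and 0.0298). Nlrc5 stood at 124.7 ± 67.9 and 127.8 ± 13.8 in the same groups and did not pass. Medians were -0.22, -0.16 and -0.06.

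Of 8 cross-presentation genes 2 rose in repopulating and 4 in bone-marrow against wild-type libraries, and Cybb fell in repopulating microglia against bone-marrow macrophages, with medians of 0.31, 0.57 and -0.04. Over all tested genes 4.86% rose in repopulating and 21.3% in bone-marrow against wild-type libraries, and 14.9% fell in repopulating microglia against bone-marrow macrophages. Wdfy4, needed for cross-presentation by dendritic cells, rose by 0.71 ± 0.17 and 0.88 ± 0.17 in the first 2 comparisons (limma adjusted p = 0.0391 and 0.0039). Cybb, the catalytic subunit of the phagocyte NADPH oxidase, stood at 3245 ± 2286, 12489 ± 1375 and 1772 ± 162 normalised counts in repopulating microglia, bone-marrow macrophages and wild-type microglia. Its repopulating libraries held 3701, 5269 and 764.8 in replicates 1 to 3. Cybb fell by 2.34 ± 0.59 in the comparison of repopulating microglia with bone-marrow macrophages (limma adjusted p = 0.0168). Of 6 tested paired immunoglobulin-like and Ly49 receptor genes, families with members known to bind class I, none passed in repopulating against wild-type microglia, 2 rose in bone-marrow macrophages relative to wild-type microglia and 4 fell in repopulating microglia against bone-marrow macrophages. Klra2, a Ly49-family receptor of myeloid cells, stood at 57.4 ± 54.1, 1076 ± 119 and 142.6 ± 52.2 normalised counts in the 3 groups. It fell by 4.76 ± 0.69 in repopulating microglia against bone-marrow macrophages (limma adjusted p = 0.0011). Medians of these receptors were -1.68, 0.62 and -1.92. They rest in part on low values, since Pira2, Pira6, Lilra6 and Klra17 stood at or below 19.32 normalised counts in every microglia library. Lilrb3, at 191.6 ± 74.7 in repopulating and 217.4 ± 37.1 in wild-type microglia (SD), differed by -0.25 ± 0.30 (limma adjusted p = 0.63).

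The calls of these related genes were not equally firm. Between repopulating microglia and bone-marrow macrophages Fcgrt, Hfe, Cd1d1, H2-T24, Ciita, Irf1 and Klra2 were called under every alternative, up to an adjusted p of 0.0378. Rfx5 lost its call under 9 of 23, TMM scaling and equal library totals among them, H2-Q5 under 5, and Cybb and H2-T10 without any 1 of the bone-marrow libraries. Between bone-marrow macrophages and wild-type microglia Fcgrt, Hfe, Cd1d1, Ciita, Ifnar1, Ifngr1, Hsp90b1, Uggt1 and Wdfy4 were called under every alternative, while Nfya and Rela lost their calls with equal library totals or when a wild-type library was omitted. Rfxank lost its call there under 7 of 23 and Nfkb2 under 5, Psme1 without wild-type replicate 2 (limma adjusted p = 0.0626) and Irf1 without wild-type replicate 1 (0.0693). Between repopulating and wild-type microglia Stat2 and Psme1 lost their calls without either wild-type library, with only these groups in the fit and with the Y-linked covariate. Nfkb2, Uggt1 and Wdfy4 lost theirs under 10, 11 and 12 of 23 alternatives. Without repopulating replicate 3, 5 of 8 cross-presentation genes and 4 of 10 loading and chaperone genes rose in repopulating microglia against wild-type microglia, and 1 of 10 other heavy chains rose and 2 fell, where 25.9% of all tested genes were called. No gene named from the 9 members or these related lists that passed changed direction under any alternative run.

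**Figure D5:**
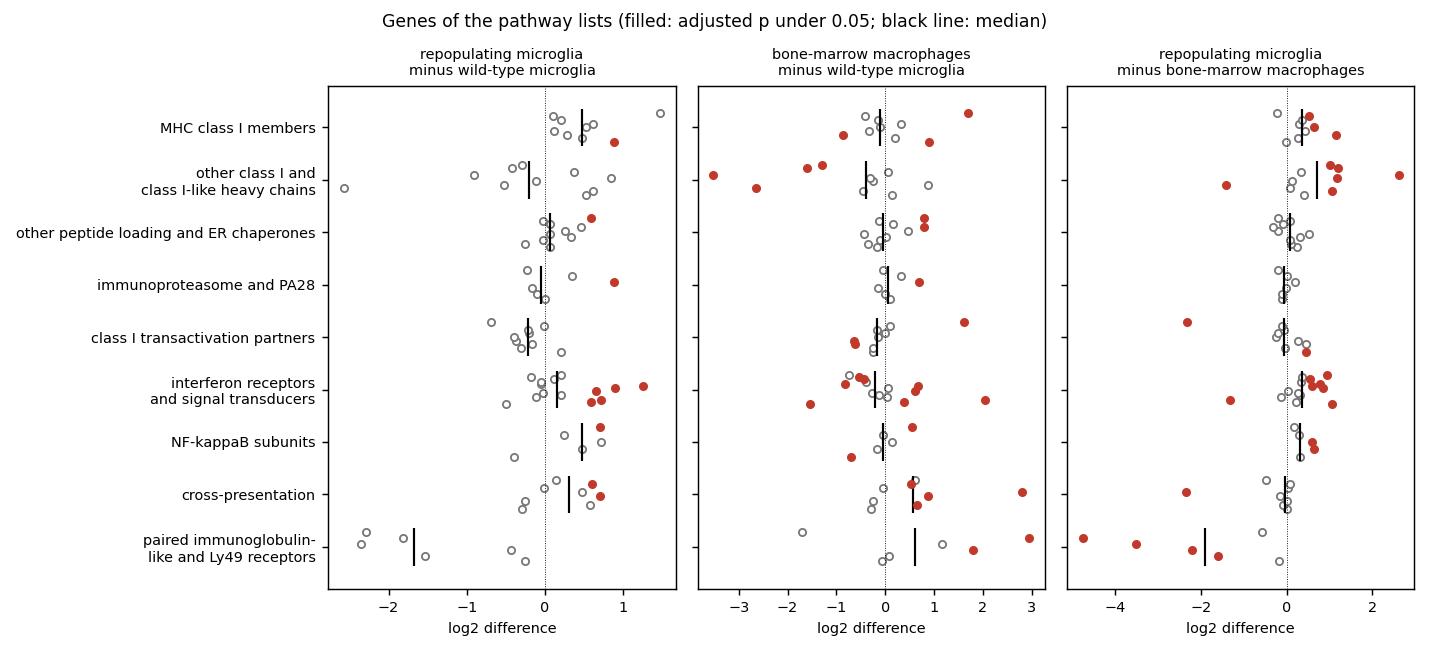
Log2 difference (horizontal axes) of each tested gene in the 9 class I genes and 8 related lists, for the 3 comparisons. Filled points have a limma adjusted p under 0.05 and black lines are medians; the class I members centre at 0.47, -0.11 and 0.35 from left to right.

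The genes whose log2 levels over the 8 libraries were most like each member were sought among 7309 genes. For B2m they included Parp9, Rtp4, Slc7a6 and Ifit2 (Pearson r from 0.965 to 0.987). For H2-K1 they were Epsti1, Oasl2, Oasl1, Zbp1 and Dhx58 (r from 0.887 to 0.962). Dhx58 and Oasl2 also led for Tap1, at r = 0.977 and 0.928, followed closely by Rps9, Rps29 and Use1 (r from 0.918 to 0.925). H2-D1 was most like Fibp, Slfn5, Parp14, Extl3 and Adcy7 (r from 0.956 to 0.97). For H2-T23 they included Fcgr1, Slamf8, Cybasc3 and Ly6e (r from 0.974 to 0.981). Tapbp was most like Mzt2 and Ddrgk1, at r = 0.98 and 0.974, and shared Slamf8 and Ly6e with H2-T23 among its 5, at r = 0.962 and 0.968. H2-M3 and Tap2 were most like Trim21 and Orai2, at r = 0.953 and 0.965. For Nlrc5 the list was led by Phf14 and Srebf1, at r = 0.977 and 0.958. The mean profile of the 9 genes was most like Flad1, Lgals3bp and the heavy chain H2-Q4, at r = 0.967, 0.945 and 0.922. These values are descriptions over 8 libraries that fall into 3 groups, so they carry the differences between groups.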

How the data were processed

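The unit of the deposited table is signal, in which each library's gene counts were divided by a single factor by the authors. These values are called normalised counts. In every library 100% of values above 0 were whole multiples, within 0.01 reads, of the value of 1 read, and whole reads were recovered on that basis. Per the submitters' processing notes the build was mm10 and the tools DESeq 1.14.0, HTSeq, Bowtie2 2.1.0.0 and TopHat2 2.0.10, with roles, annotation and strand setting not given in the sources used here. Per the labels' protocols, RNA with an integrity number above 8 was made into libraries with the TruSeq kit, version 2, which does not mark strand. Columns named repop were matched to the labels by name, the 2 columns named ctrl were taken as the controls, wild-type microglia being the 1 group with replicates 1 and 2 alone, and the 3 columns named mono were assigned to bone-marrow macrophages by exclusion.

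Tests used limma 3.58.1 in R 4.3.3 on log2(normalised count + 1) for 11415 genes that reached 10 normalised counts in 2 or more libraries. The log2 scale with a pseudocount of 1 understates changes of low genes. All 8 libraries entered 1 fit with a variance trend and no covariate, and Benjamini-Hochberg adjustment ran over all genes of a comparison, two-sided, with a threshold of 0.05. Count tests on recovered reads used edgeR 4.0.16 and DESeq2 1.42.0, and the fit was tested on simulated data. Loci and exon lengths come from GENCODE vM21 (GRCm38, also called mm10) and promoters from RefSeq (GRCm38.p6). The members and lists were chosen with earlier results of these data known. Named from each other list were up to 4 genes by smallest adjusted p, or the 2 highest where none passed, of which the text gives a part. Genes most alike were the 5 with the highest r among those with a mean of at least 100 normalised counts, leaving out predicted models. Figures used matplotlib 3.10.9 in Python 3.11.15. Some genes among those most like a member are not reported here.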

Additional observations from a re-analysis of the deposited data

How the results depend on the processing

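Each of the 27 results for a gene and comparison was recomputed under 23 alternatives. Of 7 calls, 2 held under all of them, H2-D1 between bone-marrow macrophages and wild-type microglia, and H2-T23 between repopulating microglia and bone-marrow macrophages, and all 7 kept their direction. Of the 20 results that did not pass, 11 passed under at least 1 alternative and 6 changed sign under at least 1.

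In repopulating against wild-type microglia 983 genes and 1 member were called. With only the 2 groups compared these became 78 and 0 (3 members at an unadjusted p under 0.05), with library weights 2807 and 6, with the Y-linked covariate 108 and 0 (5 members), and with DESeq2 1625 and 3. Leaving out 1 library gave 67 to 2958 genes and 0 to 5 members. In bone-marrow macrophages against wild-type microglia 4960 genes and 3 members were called, with 5 members when only these groups entered, and 2867 to 7030 genes and 1 to 4 members without 1 library. In repopulating microglia against bone-marrow macrophages 3526 genes and 3 members were called. Equal library totals gave 4096 genes and 1 member, and quantile normalisation 3473 genes and 1 member. Library weights gave 6409 genes and 7 members, and leaving out 1 library gave 2222 to 5348 genes and 1 to 4 members. The cause was not tested, and the estimation of library weights stopped before full convergence.

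Equal library totals moved the median log2 difference of all genes to -0.13, 0.13 and -0.25 in the 3 comparisons in the order above, and the share of calls that were higher to 37.8%, 59.2% and 28.6%, against 56.5%, 49% and 51.8%. With the replicate number as a block 733, 4811 and 3564 genes and 1, 3 and 2 members were called, B2m having an adjusted p of 0.0542 between repopulating microglia and bone-marrow macrophages. Same-numbered libraries of these 2 groups deviated with r = -0.085, -0.001 and 0.133 for replicates 1 to 3, so the numbers were not taken as pairs. With 2 wild-type libraries, omitting 1 assumes that the other varies like the remaining groups. The Nlrc5 values rest on as few as 33 reads.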

Other observations

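Outside the 9 genes, 22 genes carried the spaced TGACG and ATTGG pair in the 250 bases before a transcription start, among them Trim26, Znrd1 and BC051142 on chromosome 17, where the class I heavy chains also lie. Trim26, a tripartite-motif gene, rose by 0.77 on the log2 scale in repopulating microglia against bone-marrow macrophages (limma adjusted p = 0.0203), and stood at 0.29 and -0.48 in repopulating and bone-marrow against wild-type libraries (0.444 and 0.117). BC051142 rose by 1.57 in repopulating microglia against bone-marrow macrophages (limma adjusted p = 0.03645). Nasp and Hnrnpf, on other chromosomes, went the other way there, at -1.37 and -0.48 (limma adjusted p = 0.00026 and 0.0203). No further carrier outside the 9 passed in that comparison, where 16% of all tested genes were called higher and 14.9% lower. Znrd1 fell by 0.55 in bone-marrow macrophages against wild-type microglia (limma adjusted p = 0.0335) and differed by -0.55 in repopulating against wild-type microglia (0.0896). Trim26, Znrd1 and BC051142 were named for their chromosome, and Nasp and Hnrnpf for their direction. All were named after their values had been seen, and their calls under the alternatives are not given.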
